A study of Homo sapiens with 18 samples.

Results

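A set of 10 secreted matrix genes, listed by symbol for their kind of protein, was followed across 3 expression tables: TNC, FN1, THBS1, THBS2, SPARC, SPP1, POSTN, TGFBI, VCAN and FBN1. They are 10 of the 35588 Ensembl genes listed in any of the tables. The tables cover messenger RNA of 18 human cell line libraries, 3 in each of 6 groups. SW480-P are parental cells of the colorectal carcinoma line SW480, and SW480-LM3 is the line obtained from them after 3 rounds of selection for metastasis following injection into the spleen. LX-2, a hepatic stellate cell line, was exposed for 48 hours to vesicles carrying NID1 (EV-XP-NID1-LX-2) or to control vesicles (EV-XP-LX-2). LV5-NID1 is SW480 made to overexpress NID1 and given GW4869, a neutral sphingomyelinase inhibitor that lowers vesicle release, for 72 hours, and LV5 is its control. Whether GW4869 was also given to LV5 is not in the labels, so the transgene and the inhibitor cannot be told apart in that comparison. Nothing there says that replicates came from separate cultures or that the SW480 derivatives are single clones, and p-values therefore reflect a library-to-library spread that can be technical. The letters XP are likewise not explained.

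These genes encode glycoproteins that cells secrete into the matrix around them. The matricellular ones (TNC, THBS1, THBS2, SPARC, SPP1, POSTN and, by its domains, TGFBI) carry signals to cells more than load, mostly through integrins and growth factors, while FN1, FBN1 and VCAN build fibrils, microfibrils and hyaluronan-bound gels. Hepatic stellate cells are the main source of fibrous matrix in injured liver, and fibronectin, tenascin C and periostin are known parts of the matrix around tumour cells that settle there.

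The tables hold values of 2 kinds. For SW480-LM3 and SW480-P they are a signal, read counts divided by a factor for each library, which compares libraries but not genes of unlike length. In the other tables they are TPM, a transcript abundance scaled by transcript length. A gene was tested with limma on log2(value + 1) if it reached 1 in at least 3 of the 6 libraries, and it was called where the p, adjusted by Benjamini-Hochberg over all genes tested, was under 0.05, so log2 changes below are on the log2(value + 1) scale and understate those of low genes. Each SW480-P library held 15504205 to 18965163 recovered reads, and each SW480-LM3 library 15531517 to 16586016. TPM values do not give their depth, which is unknown. NID1 itself was at 0.352 to 0.582 signal in SW480-P and 44.7 to 49.1 in SW480-LM3, and at 0 to 0.04 TPM in LV5 and 348 to 379 TPM in LV5-NID1. In LX-2 it was 25.1 to 26.0 TPM with control vesicles and 18.02 to 22.6 TPM with NID1 vesicles, which checks no label, because vesicles that carry NID1 protein need not change the NID1 transcript. In bulk RNA, fewer cells of a kind and less RNA per cell cannot be told apart.

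The start regions of 4 of the genes are shown because their transcripts part ways in the results: THBS1 rose in LX-2 while its paralogue THBS2 fell, and FN1 and TGFBI were higher in SW480-LM3 and lower in the other comparisons. The LV5-NID1 calls of FN1 and TGFBI were each lost under some alternative settings, given below. Each line gives the 150 bases before the RefSeq transcription start, 5′ to 3′ on the gene's strand (GRCh38.p14), with searched motifs in capitals. THBS1 lies at chr15:39580929-39581078, plus strand, THBS2 at chr6:169253847-169253996, minus strand, TGFBI at chr5:136028838-136028987, plus strand, and FN1 at chr2:215436069-215436218, minus strand.
THBS1: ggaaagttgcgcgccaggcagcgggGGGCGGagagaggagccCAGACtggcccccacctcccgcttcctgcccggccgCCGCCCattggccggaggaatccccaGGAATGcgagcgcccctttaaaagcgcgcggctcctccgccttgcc
THBS2: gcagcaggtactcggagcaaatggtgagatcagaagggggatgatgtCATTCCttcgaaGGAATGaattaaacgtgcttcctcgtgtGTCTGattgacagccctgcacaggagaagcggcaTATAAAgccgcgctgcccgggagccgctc
TGFBI: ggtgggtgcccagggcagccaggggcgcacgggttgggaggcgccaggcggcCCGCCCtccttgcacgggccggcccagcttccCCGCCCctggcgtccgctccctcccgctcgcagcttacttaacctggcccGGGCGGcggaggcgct
FN1: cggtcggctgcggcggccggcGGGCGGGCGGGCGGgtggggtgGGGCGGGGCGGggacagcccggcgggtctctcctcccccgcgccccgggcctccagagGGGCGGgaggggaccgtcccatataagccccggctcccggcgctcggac

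The motifs searched were TATAAA (the core promoter element), TGANTCA (AP-1), GGAATG (TEAD), CAGAC (SMAD box) and GGGCGG (GC box), on both strands, over the 300 bases from 250 before to 50 after the start, and all 10 genes matched a RefSeq window by symbol. GGAATG stood in the windows of 4 of 10 members (THBS1, THBS2, SPARC and FBN1), against 14.0% of 35116 windows. TATAAA was found in THBS2 and POSTN, against 11.5% of windows, and TGANTCA in POSTN, against 7.71%. CAGAC was present in 6 of 10 (TNC, THBS1, THBS2, SPARC, SPP1 and POSTN), against 45.3%, and GGGCGG in 5 of 10 (TNC, FN1, THBS1, TGFBI and VCAN), against 45.0%. The thrombospondin windows differed: that of THBS1 held 4 GC boxes and no TATAAA, and that of THBS2 held TATAAA, 2 copies of GGAATG and no GC box. The FN1 window held 6 GC boxes, some overlapping, and was 76.7% G and C, against a median of 58.7% over all windows and 39.0% in POSTN. A match describes these letters only.

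In LX-2 cells the NID1 vesicle group had lower transcript levels of most of these genes. Of the 10 genes 8 fell, 1 rose (THBS1) and 1 was not called (SPP1). In this comparison 42.3% of all 15802 genes tested were called, 24.6% lower and 17.8% higher. Of those calls 41.9% were higher, a share of 50.8% with quantile normalization and 51.2% with median-ratio scaling, under each of which 9 members were called. The groups did not overlap for 9 of the 10 members and for 55.9% of all genes tested. A change of at least 1 on the log2 scale was reached by TGFBI and THBS2, and by 1.77% of all genes tested. The members' median log2 change was -0.77, against -0.05 over all genes tested. Summed over the 10 genes, transcripts went from 2081 to 2181 TPM in the control libraries to 1110 to 1310 TPM in the NID1 vesicle libraries.

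**Figure D1:**
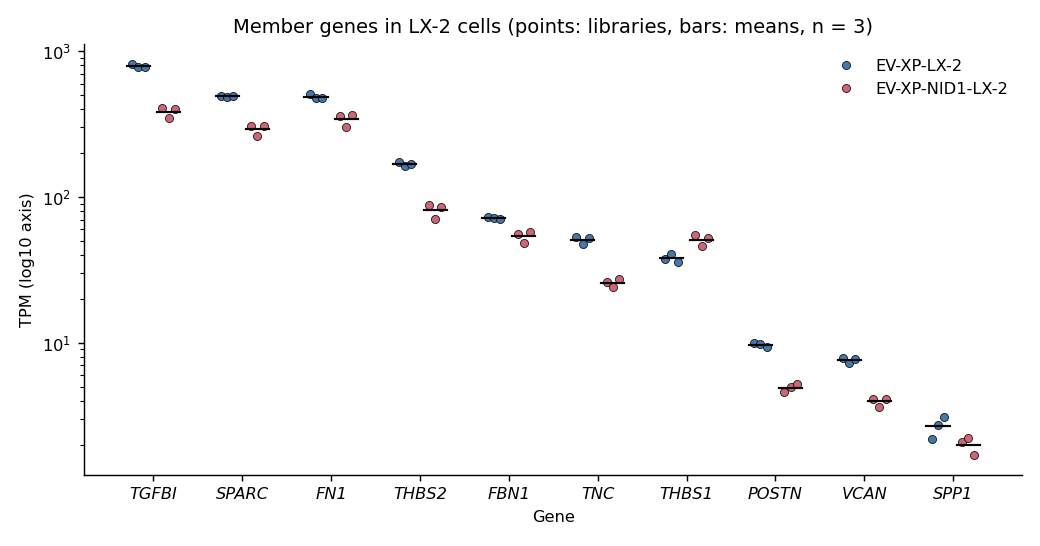
TPM of the 10 genes in each of the 3 EV-XP-LX-2 and 3 EV-XP-NID1-LX-2 libraries, on a log axis; points are libraries and bars are group means. The groups do not overlap for 9 genes, THBS1 alone is higher with NID1 vesicles, and SPP1 overlaps.

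TGFBI, a secreted integrin ligand induced by TGF-beta, was the most abundant member. Its libraries read 823, 774 and 785 TPM with control vesicles and 406, 346 and 404 TPM with NID1 vesicles. All 3 of the NID1 vesicle libraries lay below all 3 controls, a 2.06-fold lower mean (log2 change -1.04, SE 0.07, limma adjusted p = 0.000208). Only 1.15% of the genes tested had a lower log2 change. POSTN, periostin, is built from the same fasciclin domains as TGFBI and crosslinks matrix proteins. It was expressed far below TGFBI, at 10.02, 9.78 and 9.31 TPM against 4.59, 4.96 and 5.20 TPM, and its groups did not overlap (log2 change -0.86, SE 0.08, limma adjusted p = 0.000512). The TPM ratio of POSTN to TGFBI was 0.0122 ± 0.000393 (SD, n = 3) and 0.0128 ± 0.00152, within the spread of the libraries.

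The thrombospondins THBS1 and THBS2, trimeric calcium-binding proteins that bind CD47, CD36 and integrins, moved in opposite directions. THBS2, a trimer that limits vessel growth, read 174, 163 and 167 TPM with control vesicles and 88.1, 70.6 and 84.9 TPM with NID1 vesicles. That is 2.07-fold lower without overlap (log2 change -1.05, SE 0.08, limma adjusted p = 0.0003), and 1.13% of genes tested had a lower change. THBS1, its close paralogue and an activator of latent TGF-beta, has antisense genes over 7.58% of its exon bases (GENCODE 29), whose reads cannot be told apart without strand. It read 37.7, 40.9 and 35.9 TPM against 54.9, 45.9 and 52.2 TPM. Here every NID1 vesicle library was above every control library, 1.34-fold on the means (log2 change 0.41, SE 0.08, limma adjusted p = 0.00699). The TPM ratio of THBS2 to THBS1 was 4.61, 3.99 and 4.66 in the controls and 1.605, 1.54 and 1.63 with NID1 vesicles, with no overlap.

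TNC, tenascin C, is a many-armed protein of injured and tumour matrix that loosens adhesion to fibronectin. It was at 53.2, 47.7 and 51.9 TPM with control vesicles and at 26.2, 23.9 and 27.5 TPM with NID1 vesicles, 1.97-fold lower (log2 change -0.95, SE 0.07, limma adjusted p = 0.000268). FN1, fibronectin, the fibrillar ligand of integrin alpha 5 beta 1, was at 505, 480 and 474 TPM against 359, 302 and 367 TPM, 1.42-fold lower (log2 change -0.51, SE 0.08, limma adjusted p = 0.00232). Neither gene's groups overlapped, and the TPM ratio of TNC to FN1 went from 0.105 ± 0.00513 to 0.0756 ± 0.00322 (SD, n = 3), so TNC fell by the larger factor in these libraries. SPARC, a collagen-binding matricellular protein also called osteonectin, was at 496, 484 and 490 TPM and at 306, 262 and 305 TPM. Its groups stood apart as well (log2 change -0.75, SE 0.07, limma adjusted p = 0.000377). The TPM ratio of SPARC to FN1 was 1.01 ± 0.0257 in the controls and 0.850 ± 0.0177 with NID1 vesicles.

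FBN1, fibrillin 1, forms the microfibrils that hold latent TGF-beta complexes and scaffold elastin. It changed least among the members that fell, from 72.8, 71.2 and 70.5 TPM to 55.4, 48.6 and 57.9 TPM, without overlap (log2 change -0.40, SE 0.07, limma adjusted p = 0.00381). VCAN, versican, is a large chondroitin sulfate proteoglycan that binds hyaluronan. It was low, at 7.80, 7.28 and 7.75 TPM against 4.14, 3.64 and 4.12 TPM, and did not overlap either (log2 change -0.79, SE 0.09, limma adjusted p = 0.000789). SPP1, osteopontin, a phosphorylated ligand of CD44 and integrins, was the lowest member, at 2.18, 2.72 and 3.08 TPM against 2.08, 2.23 and 1.69 TPM. Its groups overlapped and it was not called (log2 change -0.28, 95% interval -0.61 to 0.04, limma adjusted p = 0.140).

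The order of levels, compared per transcript length, also differed between the LX-2 groups. With control vesicles it ran TGFBI, SPARC, FN1, THBS2, FBN1, TNC, THBS1, POSTN, VCAN and SPP1, and only SPARC and FN1 among neighbours had overlapping ranges. With NID1 vesicles the ranges of TGFBI and FN1 overlapped, as did those of FN1 and SPARC and those of FBN1 and THBS1. THBS1 stood below TNC in every control library and above it in every NID1 vesicle library.

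EV-XP-NID1-LX-2 replicate 2 was the lowest of its group for 8 of the 10 members. Without it all 9 calls were kept, with log2 changes of -0.97 for TGFBI, -0.95 for THBS2, -0.90 for TNC and 0.48 for THBS1. Mitochondrially encoded transcripts took 6.09 ± 0.112% of TPM in the controls and 3.69 ± 0.130% with NID1 vesicles (SD, n = 3), and rescaling without them left the same number of members called, 9. Of the stellate and fibroblast markers, 9 of 11 were tested, 3 fell and 1 rose, against 24.6% lower and 17.8% higher over all genes. Their sums were 605 to 618 TPM and 504 to 587 TPM. Type I collagen (COL1A1) was at 203 and 161 TPM on average and the smooth muscle protein TAGLN, the most abundant of them, at 286 and 300 TPM, while LRAT, the retinoid enzyme that marks quiescent stellate cells, was at or near 0. The colon epithelial markers summed to 248 to 261 TPM with control vesicles and 200 to 232 TPM with NID1 vesicles. The 2 tested were KRT8, which fell from 54.8 to 35.4 TPM on average, and KRT18, at 199 and 185 TPM and not called. EPCAM, CDH1, CDX2 and VIL1 averaged 0.11 TPM or less in each LX-2 group, and the leukocyte marker PTPRC 0.04 TPM or less. The leukocyte markers summed to 45.0 to 48.3 TPM with control vesicles and 16.8 to 23.2 TPM with NID1 vesicles, mostly the lysosomal protein CD68 at 43.7 and 18.6 TPM on average. The endothelial list summed to 12.3 to 14.5 and 6.97 to 7.45 TPM, led by TEK, and the hepatocyte list to 20.7 to 22.5 and 13.1 to 13.9 TPM, led by SERPINA1. The part of these marker shifts in the members' results was not tested.

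In SW480 cells before and after selection, the changes of TNC and FBN1 lay at opposite extremes among the 5 members in that table. TNC was almost absent from SW480-P and abundant in SW480-LM3, and FBN1 the reverse. TNC, FN1 and TGFBI were higher in SW480-LM3, FBN1 was lower, and THBS1 was not called. In this comparison 87.8% of 14527 genes tested were called, 43.9% higher and 43.9% lower, so 4 of 5 members called is near the share of all genes. TNC, FN1 and FBN1 changed by at least 1 on the log2 scale, as did 45.4% of all genes tested. The table has no row for THBS2, SPARC, SPP1, POSTN or VCAN, which were not analysed here in these cells. SW480-LM3 also differed from its parent across the transcriptome. Its Spearman rank correlation over 14744 genes was 0.793 with SW480-P, 0.694 with LV5 and 0.713 with control LX-2. SW480-P reached 0.886 with LV5 and 0.794 with control LX-2. Correlations between signal and TPM set values not scaled by transcript length against values that are. These rank correlations are across genes, which are not independent replicates.

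**Figure D2:**
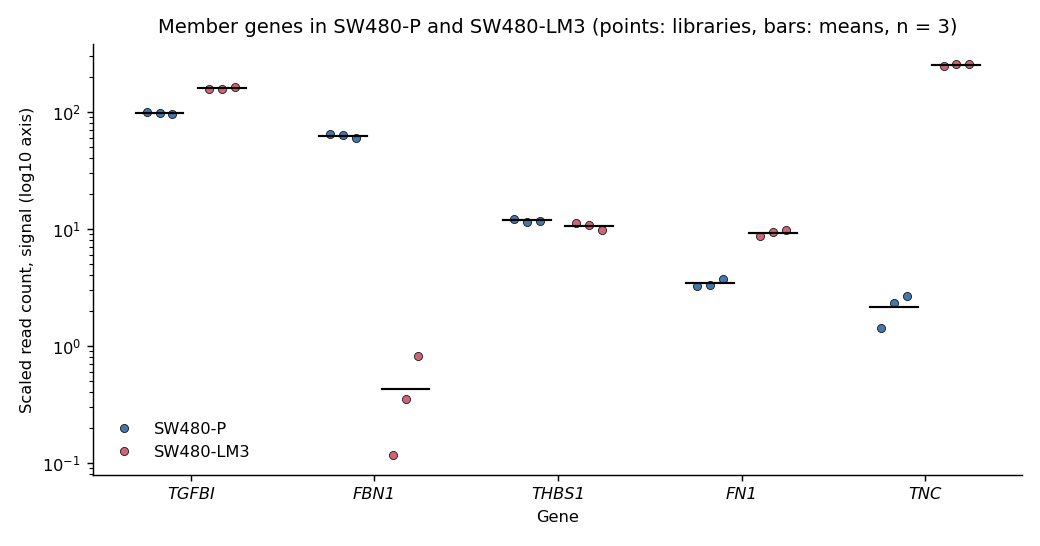
Signal of the 5 members in the SW480-P and SW480-LM3 libraries, on a log axis; points are libraries and bars are group means. TNC is far higher and FBN1 far lower in SW480-LM3, and the THBS1 groups lie close together.

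TNC stood at 1.42, 2.33 and 2.68 signal in SW480-P, from 98 recovered reads in all, and at 249, 259 and 254 in SW480-LM3, from 13397 reads. The groups are far apart, 118-fold on the means (log2 change 6.36, SE 0.12, limma adjusted p = 1.35e-15). FBN1 stood at 64.6, 64.0 and 59.5 in SW480-P, from 2850 reads, and at 0.116, 0.351 and 0.813 in SW480-LM3. Those SW480-LM3 values rest on 2, 6 and 15 reads, and the mean was 147-fold lower (log2 change -5.51, SE 0.15, limma adjusted p = 8.13e-14). FBN1 met the minimum value through SW480-P alone, so that a difference was bound to follow.

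FN1 and TGFBI, which are both expressed in each line, showed smaller differences. FN1 read 3.28, 3.32 and 3.74 signal in SW480-P and 8.72, 9.36 and 9.76 in SW480-LM3, a 2.70-fold higher mean without overlap (log2 change 1.21, SE 0.12, limma adjusted p = 1.97e-07). TGFBI read 99.95, 97.9 and 95.2 against 157, 158 and 162, a 1.63-fold higher mean, also without overlap (log2 change 0.70, SE 0.04, limma adjusted p = 3.10e-10). THBS1 read 12.2, 11.4 and 11.8 in SW480-P and 11.2, 10.8 and 9.76 in SW480-LM3. Although its groups did not overlap, as for 87.6% of all genes, the change was not called (log2 change -0.15, 95% interval -0.37 to 0.07, limma adjusted p = 0.177). That value depended on scaling: it was called with quantile normalization (log2 change -0.36, limma adjusted p = 0.00364), and with each library divided by its total it was 0.12 (limma adjusted p = 0.291), where the median of all genes moved to 0.26.

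The colon epithelial markers were higher in SW480-LM3 for 7 of 8 tested, against 43.9% of all genes. Their sums were 3527 to 3794 signal in SW480-P and 13303 to 14017 in SW480-LM3. KRT8, a keratin of simple epithelium, averaged 1850 and 7410, and the junction protein CDH1 1.67 and 148. The stellate and fibroblast markers in the table summed to 9.80 to 10.3 and 18.4 to 22.2, with TAGLN (5.02 and 14.4 on average) and COL1A1 (1.46 and 2.95) higher among 4 tested. The endothelial gene ESAM averaged 32.2 and 0.206, the leukocyte genes LYZ 0.274 and 7.05 and CD68 20.8 and 16.9, and the hepatocyte gene SERPINA1 51.5 and 95.9. ESAM and LYZ reached the minimum value in 1 group only, so that their differences were bound to follow. The part of these shifts in the members' values was not tested.

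In the SW480 cells of the third comparison only 4 members were expressed well enough to test, and 3 of them were lower in LV5-NID1. FBN1, FN1 and TGFBI fell, and THBS1 was not called. Of all 15508 genes tested, 16.6% were called, 9.32% lower and 7.27% higher. The groups did not overlap for FBN1, FN1 and TGFBI, nor for 43.3% of all genes tested, and no member reached a log2 change of 1, which 1.42% of all genes tested did. The 6 members below the minimum value were TNC, THBS2, SPARC, SPP1, POSTN and VCAN.

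**Figure D3:**
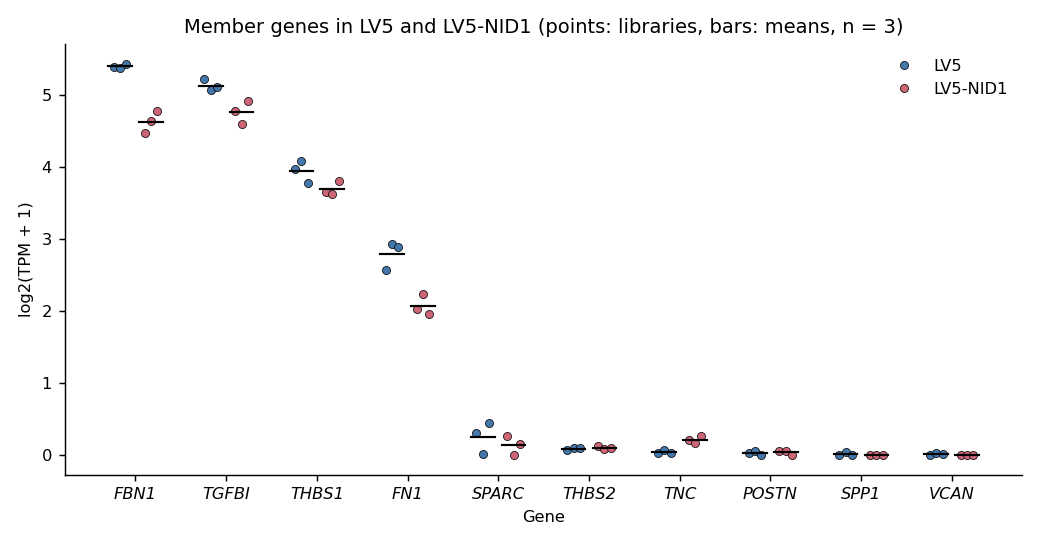
TPM of the 10 genes in the 3 LV5 and 3 LV5-NID1 libraries, as log2(TPM + 1) on a linear axis; points are libraries and bars are group means. FBN1, TGFBI and FN1 lie lower in LV5-NID1, THBS1 overlaps, and the other members are near 0.

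FBN1 was the highest member in LV5, at 40.9, 40.5 and 42.3 TPM, and read 21.3, 24.0 and 26.4 TPM in LV5-NID1. The groups were well apart, 1.73-fold on the means (log2 change -0.77, SE 0.09, limma adjusted p = 0.00475), and the call was kept whichever library was left out. FN1 read 4.95, 6.63 and 6.43 TPM in LV5 and 3.08, 3.71 and 2.89 TPM in LV5-NID1. Its groups did not overlap (log2 change -0.72, SE 0.13, limma adjusted p = 0.0198), but the call was lost without LV5 replicate 2 or 3 or LV5-NID1 replicate 1 (limma adjusted p = 0.0779, 0.0702 and 0.0528). It was also lost with no low filter (limma adjusted p = 0.0511).

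TGFBI read 36.2, 32.6 and 33.5 TPM in LV5 and 26.5, 23.2 and 29.2 TPM in LV5-NID1. Those groups stood apart by a narrow margin (log2 change -0.37, SE 0.09, limma adjusted p = 0.0482). The call was lost without LV5 replicate 1, 2 or 3 (limma adjusted p = 0.148, 0.110 and 0.117) and without LV5-NID1 replicate 1 or 2 (0.0894 and 0.118). Quantile normalization, no low filter and no variance trend also lost it (limma adjusted p = 0.0936, 0.0932 and 0.0578). THBS1 read 14.7, 16.0 and 12.7 TPM against 11.6, 11.4 and 12.9 TPM, with 1 LV5-NID1 library inside the range of LV5 (log2 change -0.25, 95% interval -0.50 to -0.01, limma adjusted p = 0.139). With the replicate number as a block, FBN1 was the only member called in this comparison, and FN1 and TGFBI had limma adjusted p of 0.0503 and 0.0837.

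Of the members near 0, TNC was at 0.02, 0.05 and 0.02 TPM in LV5 and 0.16, 0.13 and 0.20 TPM in LV5-NID1, all far under the minimum for a test. SPARC was at 0.24, 0.01 and 0.36 TPM against 0.20, 0.00 and 0.11 TPM, and THBS2 at 0.05 to 0.09 TPM in every library. POSTN reached at most 0.04 TPM, and VCAN and SPP1 were listed at 0 in all 3 LV5-NID1 libraries. Of 4 colon markers tested, the keratins KRT8, KRT18 and KRT19 fell and EPCAM rose (5.03 to 9.05 TPM on average). Over all genes tested 9.32% were lower and 7.27% higher. KRT19 reached the minimum value in LV5 alone, so that its fall was bound to follow. The colon marker sums were 1633 to 1672 TPM in LV5 and 927 to 988 TPM in LV5-NID1. The endothelial markers, nearly all ESAM, summed to 60.8 to 65.6 and 33.01 to 45.1 TPM, the stellate and fibroblast markers to 29.9 to 36.2 and 19.1 to 25.4 TPM, and the leukocyte markers to 4.77 to 6.82 and 2.69 to 3.37 TPM. CDX2, VIL1 and CDH1, which mark intestinal epithelium, averaged under 1 TPM in each of these groups, and the part of the marker shift in the members' results was not tested.

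Across cell lines the TPM tables can be set side by side only as a description, since they were normalized separately. SPARC averaged 490 ± 5.81 TPM in control LX-2 and 0.203 ± 0.178 TPM in LV5 (SD, n = 3), and THBS2 168 ± 5.16 and 0.0633 ± 0.0115 TPM. FN1 averaged 486 ± 16.2 and 6.003 ± 0.918 TPM, and TGFBI 794 ± 25.8 and 34.1 ± 1.89 TPM. THBS1 and FBN1 lay closest, at 38.1 ± 2.57 and 14.5 ± 1.66 TPM and at 71.5 ± 1.17 and 41.2 ± 0.970 TPM. In LV5 the order was FBN1, TGFBI, THBS1 and FN1, with no overlap between neighbours, and in LV5-NID1 the ranges of TGFBI and FBN1 overlapped. No libraries are shared between the 3 comparisons. TGFBI had log2 changes of 0.70 in SW480-LM3, -1.04 in LX-2 and -0.37 in LV5-NID1, FN1 1.21, -0.51 and -0.72, FBN1 -5.51, -0.40 and -0.77, and THBS1 -0.15, 0.41 and -0.25.

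**Figure D4:**
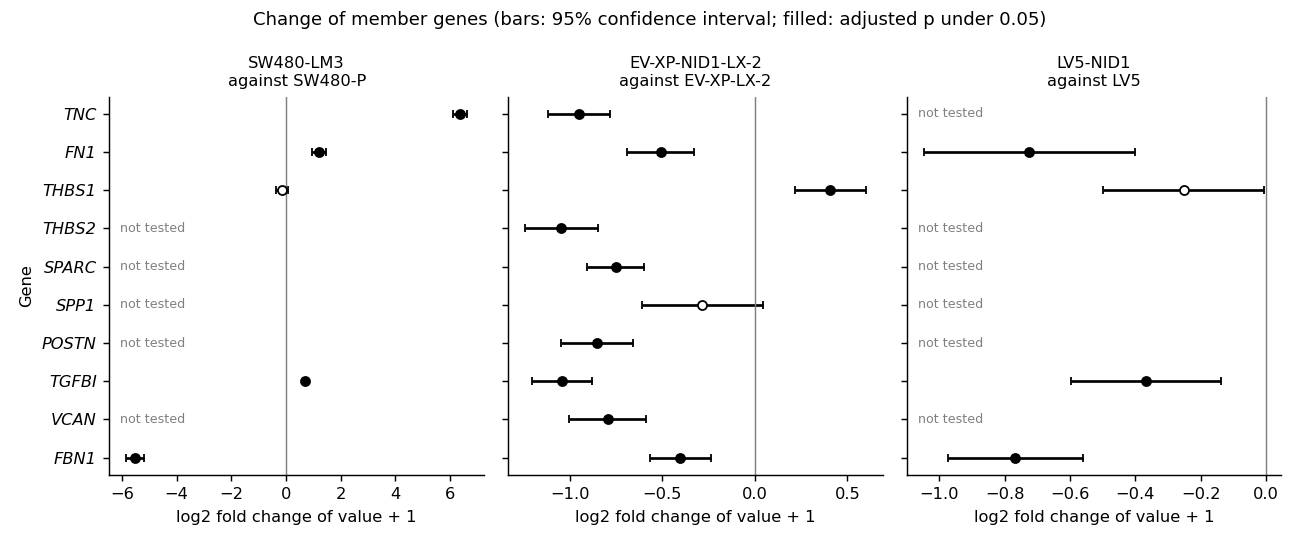
Log2 change of each tested member in the 3 comparisons, on the log2(value + 1) scale; points are limma estimates, filled where called, and bars 95% intervals, and the axes differ between comparisons. FBN1 is below 0 in each comparison, TGFBI and FN1 are above 0 only in SW480-LM3, and THBS1 is above 0 only in LX-2; the THBS1 value in SW480-LM3 turns positive with library-total scaling.

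Among 11561 genes tested in all 3 comparisons, the pattern most like that of TGFBI, by Euclidean distance over the 3 log2 changes, was that of WDR13 (distance 0.145), followed by B4GAT1 (0.207). LMO7 (0.129) and LMNTD2 (0.139) were nearest to FN1. CTSL, the lysosomal protease cathepsin L (0.188), and SGK1, a serum-induced kinase (0.333), were nearest to FBN1. CTSL had log2 changes of -5.48, -0.54 and -0.90. The SW480-LM3 change of FBN1 rests on few reads in that line and depended on the setting. Over all settings it ran from -7.19 to -3.64, against -5.79 to -4.66 for CTSL and -6.33 to -3.90 for SGK1. The closeness of these genes to FBN1 thus holds for the main setting, the only one at which distances were computed. CTSL and LMO7 were called in all 3 comparisons. LMNTD2 was not called in LX-2 or LV5-NID1 (limma adjusted p = 0.103 and 0.127), nor SGK1 in LX-2 (0.274). WDR13 and B4GAT1 were not called in LV5-NID1 (limma adjusted p = 0.228 and 0.167). The distances are likenesses of 3 numbers each and carry no test.

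Other matricellular proteins, 20 genes of related kind, were tested for 13 members in SW480-LM3, where 4 rose and 9 fell (median log2 change -1.52), against 43.9% of all genes in each direction. In that comparison genes that reach the minimum value in 1 group only were bound to differ. They are 6 of these 13, with FSTL1 and SMOC2 among them, 7 of 16 elastic fibre genes, 3 of 7 proteoglycans, 1 of 14 receptors and 9 of 23 processing and assembly genes. The counts given here for SW480-LM3 support nothing about the lists. FSTL1, a SPARC-family glycoprotein, averaged 314 ± 6.71 signal in SW480-P and 0.253 ± 0.235 in SW480-LM3 (SD, n = 3), and CCN5 (WISP2) 212 ± 11.1 and 0.926 ± 0.247. The SPARC-family gene SMOC2 had 0 reads in SW480-P and 46.4 ± 1.22 signal in SW480-LM3, at least 702-fold higher against a floor of 3 reads over the group. In LX-2, 4 of 8 tested fell and 1 rose (median -0.44), against 24.6% lower and 17.8% higher over all genes. THBS3, a pentameric thrombospondin, fell there from 4.49 ± 0.541 to 1.69 ± 0.247 TPM, with THBS2, and FSTL1 fell from 265 ± 7.30 to 169 ± 13.9 TPM, while CCN3 rose from 9.53 ± 0.872 to 15.7 ± 0.835 TPM. In LV5-NID1, 4 of 10 tested fell and none rose by limma, nor at an unadjusted p under 0.05 (median -0.13), against 9.32% lower and 7.27% higher over all genes: CCN2, CCN1 and CCN5, integrin-binding proteins of which CCN1 and CCN2 are known YAP targets, went from 40.4 ± 0.609 to 22.6 ± 0.557, from 86.1 ± 0.862 to 54.4 ± 2.42 and from 257 ± 8.03 to 90.7 ± 35.7 TPM. The CCN5 call was lost without LV5 replicate 1, 2 or 3 (limma adjusted p = 0.0788, 0.0761 and 0.0696) or LV5-NID1 replicate 2 (0.0648), and the count of falling genes was 2 without LV5 replicate 1 or 2 or LV5-NID1 replicate 2.

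Elastic fibre and microfibril proteins, the partners of fibrillin 1, were lower for 12 of 16 tested in LX-2, against 24.6% of all genes (median -0.67). None rose by limma, with 1 higher at an unadjusted p under 0.05. This list, like the others, was chosen with earlier results of these data known, so its count is a description and no independent support. FBLN2, a fibulin that binds fibronectin and fibrillin, fell from 17.0 ± 1.55 to 5.01 ± 0.437 TPM, LTBP1, which holds latent TGF-beta on microfibrils, from 30.8 ± 0.979 to 15.2 ± 1.06 TPM, and the crosslinking enzyme LOX from 199 ± 2.02 to 118 ± 11.8 TPM. In SW480-LM3 the list split, 7 higher and 8 lower of 16 (median -0.60), near the 43.9% of all genes in each direction. FBN2, the other main fibrillin and, like EFEMP1, at the minimum value only in SW480-P, went from 29.7 ± 2.86 signal to 0 reads, at least 524-fold lower, as FBN1 fell. EFEMP1, fibulin 3, went from 251 ± 2.37 to 0.0193 ± 0.0335 on 1 read, 13227-fold lower (2374 to 522480 by counting error alone), and LTBP3 rose from 17.4 ± 0.373 to 179 ± 9.40. In LV5-NID1 5 of 14 fell and 1 rose (median -0.39), against 9.32% lower and 7.27% higher over all genes. FBLN1 fell from 208 ± 0.580 to 85.1 ± 19.5 TPM, LTBP1 from 34.6 ± 2.24 to 23.6 ± 1.89 TPM, and LOX rose from 7.99 ± 0.168 to 11.9 ± 0.977 TPM. That count of 5 was 1 without LV5 replicate 1 or 2 or LV5-NID1 replicate 2, 3 without LV5-NID1 replicate 1, and 1 with the replicate block, where LTBP1 and LOX were lost (limma adjusted p = 0.0581 each), as they were without LV5 replicate 1 or 2 (0.0528 and 0.0556 for LTBP1, 0.0568 and 0.0532 for LOX) and, for LTBP1, without LV5-NID1 replicate 2 (0.0566).

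**Figure D5:**
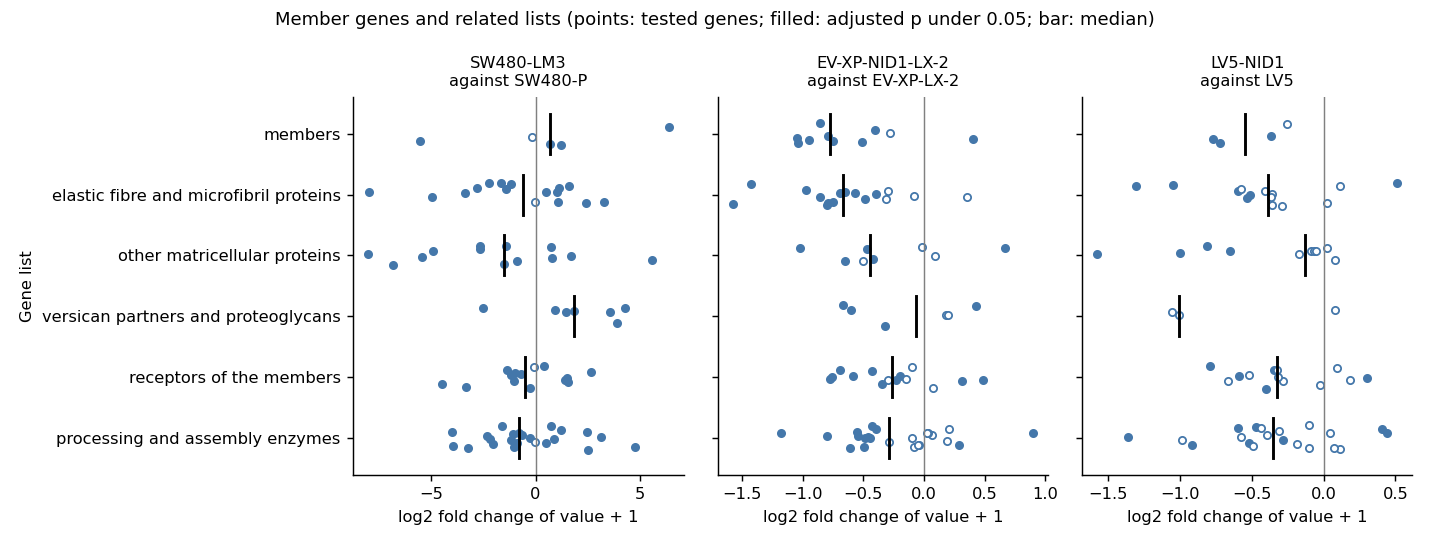
Log2 change, on the log2(value + 1) scale, of every tested gene of the members and the related lists in the 3 comparisons; filled points are called genes, open points are not, and bars are list medians. In LX-2, 12 of 16 elastic fibre genes are filled points below 0, while in SW480-LM3 the points of each list spread to both sides.

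Versican partners and other proteoglycans were tested for few genes outside SW480-LM3. There 6 of 7 rose and 1 fell (median 1.82), against 43.9% of all genes in each direction. With the 2 genes at 0 reads set to the bound of their read ratio the median was 3.57, which mixes that ratio with changes on the log2(value + 1) scale. HSPG2, perlecan, rose from 14.4 ± 2.84 to 181 ± 9.38 signal, HAS3, a hyaluronan synthase, from 4.32 ± 1.18 to 75.8 ± 3.88, and LUM, lumican, at the minimum value only there, from 0 reads to 18.1 ± 2.02, at least 275-fold. In LX-2 3 of 6 fell and 1 rose (median -0.07), against 24.6% lower and 17.8% higher over all genes: CSPG4 fell from 44.4 ± 0.369 to 27.7 ± 3.33 TPM, HSPG2 from 12.3 ± 0.981 to 7.76 ± 0.943 TPM and HAPLN3, a link protein, from 17.4 ± 0.756 to 13.8 ± 1.62 TPM. The HAPLN3 call was lost when replicate 1, 2 or 3 of EV-XP-LX-2 was left out (limma adjusted p = 0.1002, 0.0774 and 0.0552). The 1 call higher was lost whichever library was left out, except EV-XP-LX-2 replicate 2. In LV5-NID1 none of 3 tested was called by limma, 2 were lower at an unadjusted p under 0.05, and 2 were called without LV5-NID1 replicate 3.

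Receptors of these proteins fell for 8 of 14 tested in LX-2 and rose for 2, or 1 without EV-XP-LX-2 replicate 1 (median -0.26), against 24.6% lower and 17.8% higher over all genes. The falling count was 6 to 9 with 1 library left out and 7 with the replicate block. ITGA3 fell from 231 ± 3.66 to 136 ± 17.8 TPM, ITGA5, the alpha chain of the fibronectin receptor, from 165 ± 6.34 to 110 ± 11.6 TPM, and LRP1, the endocytic receptor that clears thrombospondins, from 17.5 ± 0.226 to 10 ± 1.49 TPM. In SW480-LM3 5 rose and 8 fell of 14 (median -0.49), against 43.9% of all genes in each direction. CD44, a hyaluronan and osteopontin receptor, fell from 205 ± 1.99 to 19.9 ± 2.90 signal, ITGB1 from 1245 ± 64.7 to 483 ± 2.09, and the heparan sulfate proteoglycan SDC2, at the minimum value only in SW480-P, from 21.8 ± 1.52 to 0.0387 ± 0.0670 on 2 reads. In LV5-NID1 4 of 13 fell and 1 rose (median -0.33), against 9.32% lower and 7.27% higher over all genes, and the rise was lost without LV5 replicate 1 or LV5-NID1 replicate 2. There the falling count was 3 to 6 with 1 library left out and 3 with the replicate block. SDC2 fell from 29.7 ± 2.77 to 16.7 ± 1.01 TPM, ITGB5 from 111 ± 7.46 to 73.2 ± 3.15 TPM and SDC4, a fibronectin co-receptor, from 61.4 ± 0.624 to 46.4 ± 1.86 TPM.

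Processing and assembly genes are mostly enzymes that cut, crosslink or glycosylate these proteins, and the list also holds the fibrillin binders ADAMTSL2 and ADAMTSL4. In LX-2, 11 of 23 tested were lower and 2 higher (median -0.29). The lower count was 9 to 11 with 1 library left out. The higher count was 1 when replicate 1 or 3 of EV-XP-NID1-LX-2, or replicate 1 of the controls, was left out. Over all genes 24.6% were lower and 17.8% higher. PLAT, tissue plasminogen activator, fell from 145 ± 9.04 to 63.5 ± 5.38 TPM and B4GALT7, which builds the linker of chondroitin sulfate chains, from 34.7 ± 1.25 to 23.5 ± 1.66 TPM, while MMP3, a protease that cuts fibronectin, rose from 7.82 ± 0.869 to 15.4 ± 0.761 TPM. In SW480-LM3 8 rose and 14 fell of 23 (median -0.80), against 43.9% of all genes in each direction. ADAMTSL2, which binds fibrillin 1, rose from 2.63 ± 0.325 to 96.4 ± 2.04 signal and the chondroitin synthesis gene CHPF from 37.9 ± 2.76 to 219 ± 8.73, and TLL1, a procollagen protease at the minimum value only in SW480-P, went from 14.4 ± 0.927 to 0 reads, at least 253-fold lower. In LV5-NID1 6 of 20 fell and 2 rose (median -0.35), against 9.32% lower and 7.27% higher over all genes. ADAMTSL4, another fibrillin binder, fell from 10.5 ± 0.134 to 3.55 ± 0.996 TPM and the transglutaminase TGM2, which crosslinks fibronectin, from 25.5 ± 1.22 to 13.1 ± 1.602 TPM. POGLUT1, a protein O-glucosyltransferase, rose from 10.5 ± 0.202 to 14.2 ± 0.540 TPM. Its call was lost with the replicate block (limma adjusted p = 0.0631) and without LV5 replicate 1 or 2 (0.0563 and 0.0528) or LV5-NID1 replicate 2 (0.0554), and the list had 2 falling genes without LV5 replicate 1 or 2 or LV5-NID1 replicate 1 or 2, and 3 with the block.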

How the data were processed

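RNA sequencing of 18 libraries was used as 3 deposited gene tables, each fitted alone. The processing notes of the submitters name HISAT2 2.1.0 and Bowtie2 2.3.5 without a role, and for counting, strand, genome build and annotation a tool or version is not given in the sources used here. The deposited signal of the SW480-LM3 table gave whole reads for 99.97 to 100% of values within 0.05 read once divided by the step of each library, so edgeR 4.0.16 and DESeq2 1.42.0 were run on those reads as alternatives. The deposited TPM values, normalized by the authors, give no depth. The other steps used R 4.3.3, limma 3.58.1 with a variance trend, a pseudocount of 1 and the minimum of 1 in 3 libraries. The members and related lists were chosen with earlier results of these data known, and the lists count members without a test of their own. Named list genes are up to 3 called genes per list with the smallest adjusted p. Tests on simulated data came first. Replicates of SW480-P and of SW480-LM3 differed by more than sampling noise (chi-square per degree of freedom 2.29 to 3.71), which the TPM tables do not allow to be tested. Without strand, reads cannot be assigned between TNC, THBS1, SPARC and VCAN and genes antisense to them, which overlap 1.34 to 7.89% of their exon bases (GENCODE 29). Of the versioned Ensembl IDs listed for LX-2 and LV5, 67.2% stand in GENCODE 29 with the same version. The overlaps may therefore differ in the annotation behind the deposited values. Start regions come from the RefSeq promoter table (GRCh38.p14), and a planned protein sequence comparison was not run. Alternatives were other scalings, pseudocounts, filters, tools, a replicate block and leaving out each library.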

Additional observations from a re-analysis of the deposited data

How the results depend on the processing

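Members called numbered 4 in SW480-LM3 and 9 in LX-2 whichever library was left out, and 1 to 3 in LV5-NID1, with 1 left without LV5 replicate 2 or 3 or LV5-NID1 replicate 1. Requiring an absolute log2 change of 1 left 2 called in LX-2 and 0 in LV5-NID1, where the limma count without that minimum was 3. The replicate block left 1 in LV5-NID1. Deviations of same-numbered libraries in the groups compared correlated at -0.0474 to 0.0632 over genes, and replicate numbers were not treated as pairing. The log2 change of THBS1 in SW480-LM3 turned to 0.12 with library-total scaling. In all, 311 of 312 alternative log2 changes of members kept their direction and 285 also kept their side of the threshold. SPP1 in LX-2 and FN1 in LV5-NID1 had no value at a mean of at least 5.

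All genes called in LV5-NID1 numbered 2572, but 1532 with no low filter, 890 with the replicate block, 220 at an absolute log2 change of 1 and 713 to 3325 with 1 library left out, over 1.5 times fewer without any library but LV5-NID1 replicate 3. That minimum left 280 of 6687 in LX-2 and 6592 of 12749 in SW480-LM3. The higher share of LV5-NID1 calls, 43.8%, was 54.8% with quantile normalization, 34.0% with no low filter, 26.2% with the replicate block, 10% at an absolute log2 change of 1 and 25.9 to 39.1% with 1 library left out. Of 500 alternative list counts, 71 moved by more than 1.5 times, 39 of them in LV5-NID1. The cause was not tested. Unknown depth limits what the TPM values near 0 can show.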
